A study of Mus musculus with 6 samples.

Results

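Genes that oxidise, reduce or hydrolyse foreign compounds and aldehydes were followed in mouse embryo fibroblasts with and without p38α. The set holds 10 genes: Ces1g, Cyp1a1, Cyp1b1, Ahr, Ephx1, Aldh1a1, Aldh1a3, Aldh2, Aldh3a1 and Akr1b8, out of 10568 named genes on the array, and each was read by 1 probe. They were gathered around Ces1g because its signal was lost in cells without p38α. The KO against WT values of Ces1g are therefore a description and carry no test, and the counts over the set support nothing further. RNA was measured on 6 Codelink mouse arrays, 3 of cultures with genotype p38α-/- (KO) and 3 of wild type cultures (WT). All 6 cultures were fibroblasts of a mixed 129/svev × C57Bl/6 background, immortalised spontaneously with a 3T3 schedule, and all, WT included, carried stably transduced H-RasG12V, an oncogenic form of Ras. They had grown for 72 h and were collected before confluence. The labels call the cultures of a genotype biological replicates without saying whether they are separately derived lines. The p-values therefore measure the spread between these cultures. This holds if each array was read in the channel of the culture and not of a genotype pool, as taken here. In bulk RNA, fewer cells with a transcript and less transcript per cell cannot be told apart.

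Cells clear foreign chemicals in steps. The aryl hydrocarbon receptor, encoded by Ahr, is a ligand-activated transcription factor that pairs with Arnt and switches on Cyp1a1 and Cyp1b1, cytochromes P450 that oxidise aromatic hydrocarbons, and microsomal epoxide hydrolase, Ephx1, opens epoxides that such oxidation leaves. Carboxylesterases such as Ces1g, a gene best known from liver, cleave esters of drugs and lipids, while aldehyde dehydrogenases (Aldh genes) and aldo-keto reductases (Akr genes) remove reactive aldehydes. Aldh1a1 and Aldh1a3 also make retinoic acid from retinaldehyde. In mouse embryo fibroblasts Cyp1b1 is known as the main P450 of this group.

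Of the 19801 gene probes, the arrays marked 43.9% to 51.7% as above background. KO replicate 3 had the lowest share and a median local background of 61, where the remaining arrays had 49 to 53. Log2 values correlated at 0.986 to 0.996 between KO arrays, at 0.996 to 0.997 between WT arrays and at 0.95 to 0.963 between the groups, across probes, which are not independent replicates. The number of arrays limits the precision. Intensities given below are background-subtracted and not scaled between arrays, and their median over gene probes was 18.8 to 21.7 on KO and 15.9 to 17.5 on WT arrays. The log2 signals and differences are normalized (normexp background correction with an offset of 50, then quantile normalization). Mapk14, the gene of p38α, had a difference of -0.94 (SE 0.07, limma adjusted p = 7.8e-05), KO minus WT, with 1 of 3 KO arrays above background, and of -2.24 with offset 0. Of 6 measured fibroblast markers, 5 were above background on every array (Col1a2, Col5a1, Vim, Pdgfrb and Lox), and Thy1 on none. Of these, Vim was higher and Pdgfrb and Lox lower in KO, and the median difference of the list was -0.24. The summed intensity was 16010 to 22702 on KO and 10026 to 12340 on WT arrays, nearly all of it Vim, and the other markers summed to 1120.5 to 1482 on KO and 1331 to 1541 on WT arrays.

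Ephx1, Aldh3a1, Ahr and Akr1b8 were higher in KO, Cyp1b1 was lower, and Ces1g was seen in WT alone. Among the 9 members besides Ces1g, 4 were thus called higher and 1 lower at an adjusted p under 0.05, and 4 were not called. Over all 19598 probes tested 22.6% were called, 10.4% higher and 12.1% lower. That is 2047 probes higher and 2374 lower, a split that became 2401 and 1345 under median scaling. Among probes above background on every array of at least 1 group, a condition that 7 of the 10 members met, 43.4% were called. Near background, with no array above it, were 3 members, Cyp1a1, Aldh1a1 and Aldh1a3, and of all such probes 0.855% were called. KO and WT log2 values did not overlap for 7 of the 9, against 36.0% of all probes. The rule behind the set used this same contrast, so nothing is read from these counts.

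**Figure D1:**
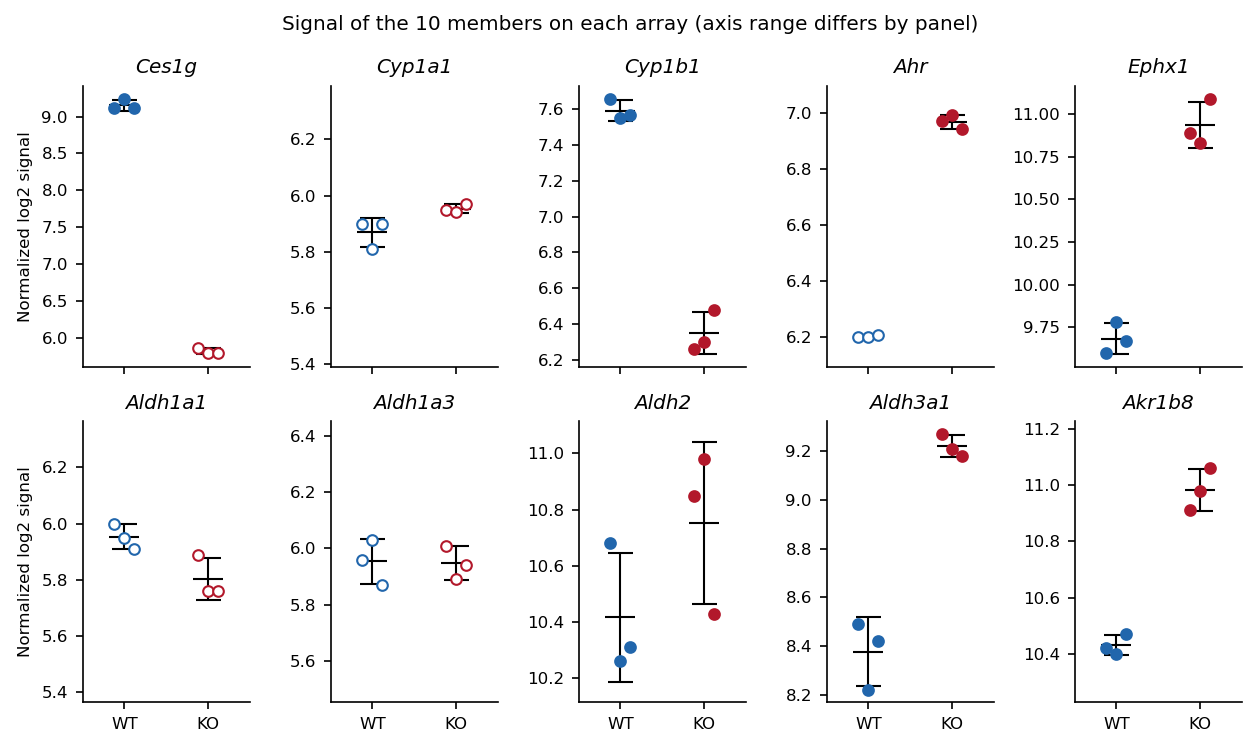
Normalized log2 signal of each member on the 3 WT (blue) and 3 KO (red) arrays, with group mean and SD (n = 3) in black. Filled points belong to groups above background on all 3 arrays, open points to groups with no array above background. Ces1g and Cyp1b1 sit higher in WT, Ahr, Ephx1, Aldh3a1 and Akr1b8 higher in KO, and the Aldh2 groups overlap.

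Ces1g intensities were 444, 523 and 416 on WT replicates 1, 2 and 3, and 4.26, 1.33 and -0.157 on KO replicates 1, 2 and 3. The WT values were high on all 3 arrays, and no KO value was marked above background. On each KO array Ces1g also lay below the median of the 300 control spots of type N, which was 3.78 to 5.28. Its log2 signal averaged 9.15 ± 0.08 in WT and 5.82 ± 0.04 in KO (SD, n = 3), a difference of -3.33 (SE 0.06), or at least 7.99-fold lower in KO. That bound sets the WT mean against, per KO array, the higher of the probe's own signal and the lowest signal of any probe above background. Over the array, 0.934% of probes were above background on all 3 WT arrays and on no KO array. The difference was -4.57 with offset 16 and -6.35 with offset 0. It was -5.73 with the authors' value table, where values under 0.5 were set to that floor. The RefSeq promoter of Ces1g (GRCm38.p6, chr8:93337160-93337459, minus strand, from 250 bases before to 50 after the start) is shown because this transcript went from clear signal to none. No motif searched below was found in it, so it holds no capitals.
Ces1g: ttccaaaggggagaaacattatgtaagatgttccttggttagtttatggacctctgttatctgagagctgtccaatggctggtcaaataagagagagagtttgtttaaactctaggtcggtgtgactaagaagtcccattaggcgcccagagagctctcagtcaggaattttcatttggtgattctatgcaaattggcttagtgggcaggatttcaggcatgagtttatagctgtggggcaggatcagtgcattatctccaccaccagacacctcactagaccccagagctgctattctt

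Ces1g lies in a row of carboxylesterase genes on chromosome 8, and none of its measured relatives there was above background on all 3 WT arrays. Ces1f, the measured gene next to it, had intensities of 6.98, 4.32 and 13.3 on KO and 5.12, 5.74 and 0.628 on WT arrays. Ces1c, Ces1d and Ces1f were near background on all 6 arrays, with log2 differences of -0.12, -0.04 and 0.09. Ces1e was above background on 2 arrays of each group and differed by -0.18 (limma adjusted p = 0.097). On the far side of this row the matrix protease gene Mmp2 was lower in KO (-1.08, limma adjusted p = 6.7e-06), and on the other side of Ces1g Gnao1 was near background throughout. These neighbours were chosen by position after the values of Ces1g were seen. The esterases are similar in sequence, and which of them a probe can capture was not tested. Among the 5 named genes whose log2 profile over the 6 arrays, centred on its own mean, lay nearest to that of Ces1g were Htra1 (Euclidean distance 0.27 log2 units), Hoxb7 (0.31), Sigirr (0.33) and Ctsh (0.35). The homeobox gene Hoxb7 was also near background on all 3 KO arrays.

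**Figure D2:**
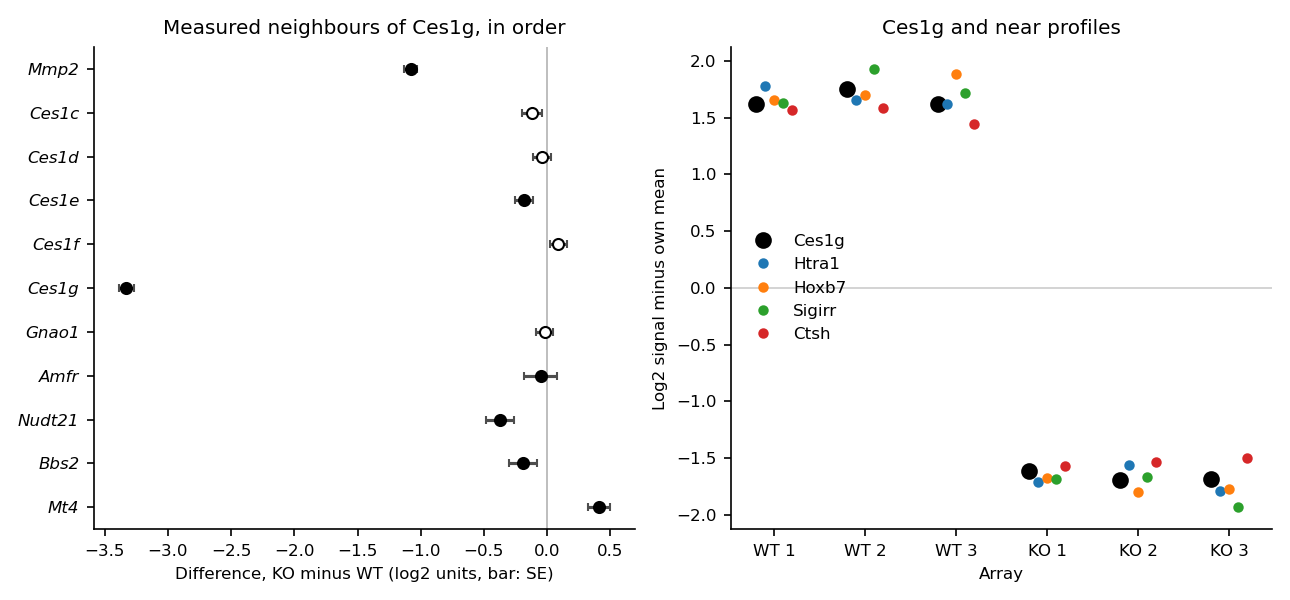
Left, difference KO minus WT with SE for Ces1g and the 5 measured genes on either side of it in chromosome order, open for genes with no array above background. Right, log2 signal minus the gene's own mean for Ces1g and 4 of the 5 nearest profiles on each of the 6 arrays. Ces1g stands at -3.33 while the measured carboxylesterases beside it lie between -0.18 and 0.09.

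Ces1g is a liver gene, so hepatocyte markers are given beside it. Of 7 measured, 6 were near background on every array (Ttr, Apoa2, Serpina1a, Tat and Afp among them), Apoa1 was above it on 1 KO array, and none was called. Their summed intensity was 39.6 to 74.1 on KO and 30.5 to 37.7 on WT arrays. The hepatocyte markers measured were thus at or near background in the WT cultures that gave the Ces1g signal. Alb, Apob, Cps1, Fgb and Tf, also among the 12 markers listed, were not measured.

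The receptor gene Ahr and Cyp1b1, the only P450 target named here with signal above background, moved in opposite directions. Ahr intensities were 85.3, 82.8 and 68.5 on KO arrays and 17.4, 17.9 and 16.6 on WT arrays. All KO arrays and no WT array were marked above background, as held for 1.52% of all probes, although the WT values exceeded the 95th percentile of the type N control spots (11.6 to 12.5 on WT arrays). The log2 signal averaged 6.97 ± 0.02 in KO cultures and 6.20 ± 0.00 in WT cultures (SD, n = 3), at least 1.69-fold higher in KO (difference 0.77, SE 0.05, limma adjusted p = 2.7e-05). Without the offset the difference was 1.67 (adjusted p = 0.00051) and it was 1.91 with the authors' value table.

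Cyp1b1 ran the other way, with intensities of 26.1, 27.2 and 34.2 on KO arrays and 130, 128 and 116 on WT arrays. It was above background on all 6 arrays and the groups did not overlap. Its log2 signal averaged 6.35 ± 0.12 in KO cultures and 7.60 ± 0.06 in WT cultures, 2.37-fold lower in KO (difference -1.25, SE 0.07, limma adjusted p = 1.6e-05), and -2.20 with offset 0. Cyp1a1, the receptor's textbook target, had intensities of 7.36, 6.48 and 9.75 on KO arrays and 4.88, 1.80 and 4.91 on WT arrays. Every one of these lay below the 95th percentile of the type N control spots, so no fold is given, and the difference of 0.08 had a limma adjusted p of 0.43.

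RefSeq promoters of 6 of the 10 members were at hand, 7 sequences in all, and were searched on both strands for 2 forms of the site that Ahr and Arnt bind, the core GCGTG and the longer TNGCGTG, and for the antioxidant response core (TGAC, any 3 bases, GC). The core was found once each in the windows of Cyp1a1, Cyp1b1 and Akr1b8, and in none of the windows of Ces1g, Ephx1 and Aldh1a1. Of all 32851 promoters of this length in the table, 32.4% hold it. Neither other motif was found in a member's window, against 5.07% and 12.4% of all promoters. These 3 windows are shown because they carry the core in a P450 that was lower, a P450 that was near background and a reductase that was higher in KO, while Ahr was higher. Capitals mark GCGTG or, read on the opposite strand, CACGC. A match describes letters, not a bound site, and the well-known cluster of receptor sites of Cyp1a1 lies further upstream than this window.
Cyp1a1, chr9:57697363-57697662, plus strand, core at bases 197 to 201: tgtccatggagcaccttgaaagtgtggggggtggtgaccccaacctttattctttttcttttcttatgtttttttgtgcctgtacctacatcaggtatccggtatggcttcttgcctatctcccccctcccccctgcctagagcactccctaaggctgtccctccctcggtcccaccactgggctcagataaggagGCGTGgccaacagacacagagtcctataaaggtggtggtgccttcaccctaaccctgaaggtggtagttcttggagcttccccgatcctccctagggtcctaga
Cyp1b1, chr17:79715012-79715311, minus strand, core at bases 175 to 179: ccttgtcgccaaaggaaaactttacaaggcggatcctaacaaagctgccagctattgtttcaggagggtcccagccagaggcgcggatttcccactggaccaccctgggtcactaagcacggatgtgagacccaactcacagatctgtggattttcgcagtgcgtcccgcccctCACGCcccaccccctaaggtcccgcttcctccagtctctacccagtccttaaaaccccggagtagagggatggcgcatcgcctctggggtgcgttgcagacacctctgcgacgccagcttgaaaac
Akr1b8, chr6:34353896-34354195, plus strand, core at bases 225 to 229: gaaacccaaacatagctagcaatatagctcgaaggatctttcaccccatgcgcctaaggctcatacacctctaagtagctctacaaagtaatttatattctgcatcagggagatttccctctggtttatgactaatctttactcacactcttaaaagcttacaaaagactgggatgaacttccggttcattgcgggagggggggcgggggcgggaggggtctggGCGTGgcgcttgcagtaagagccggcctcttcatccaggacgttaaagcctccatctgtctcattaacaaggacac

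Other genes of the receptor pathway changed in both directions, 2 of 10 measured higher and 1 lower. The median difference was 0.00 against -0.008 over all probes, of which 10.4% were higher and 12.1% lower. The counts of the lists below stand against the same shares. Nqo1, a quinone reductase that responds to Ahr and to oxidative stress, had intensities of 75.8, 76.6 and 55.7 on KO and 5.76, 4.49 and 6.98 on WT arrays, at least 1.58-fold higher in KO (difference 0.94, limma adjusted p = 2.4e-05). The glutathione transferase Gsta1 was 1.23-fold higher (adjusted p = 0.0092). Ptges3, a co-chaperone that holds the receptor in its ligand-ready form, was 1.75-fold lower (difference -0.80, adjusted p = 0.0062), a call lost under median scaling (-0.61, adjusted p = 0.066) and with the authors' value table (-0.85, 0.069). The partner Arnt and the repressor Ahrr were above background on all 6 arrays and differed by 0.00 and 0.03 (adjusted p = 0.99 and 0.81). Cyp1a2, a further P450 target, was near background on every array.

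Ephx1 had intensities of 2168, 2175 and 2106 on KO arrays and 644, 785 and 646 on WT arrays. All arrays were above background and every KO value exceeded every WT value. The log2 signal averaged 10.94 ± 0.13 in KO cultures and 9.68 ± 0.09 in WT cultures (SD, n = 3), 2.39-fold higher in KO (difference 1.25, SE 0.08, limma adjusted p = 2.9e-05). It kept a difference of 1.18 to 1.47 under all settings, so here the offset mattered little. Of the other P450s, their partners and epoxide hydrolases, 3 of 23 measured were higher and 1 lower, with a median of 0.02, and 15 were near background on every array. These counts were 5 higher under median scaling and 0 lower with dim probes left out. The latter setting removed the lower gene, Cyp4v3, before testing, and its call held in all 15 other settings. Pgrmc1, a haem-binding membrane protein that associates with P450s, was 2.20-fold higher (limma adjusted p = 4.0e-05), the monoamine oxidase Maob at least 1.45-fold and Cyb5r3, the cytochrome b5 reductase, 1.77-fold (adjusted p = 0.011). The call of Cyb5r3 was lost with the authors' value table (adjusted p = 0.074), with offset 0 (0.058) and without WT replicate 1 (0.054) or 3 (0.05). Cyp4v3, a fatty acid hydroxylase, was at least 1.10-fold lower (adjusted p = 0.0050), above background on 2 of 3 WT arrays. Por, the electron donor of microsomal P450s, was not called (0.48, adjusted p = 0.098) but was under median scaling (0.68, adjusted p = 0.0096).

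The 4 aldehyde dehydrogenases of the set split into a pair with clear signal and a pair near background. Aldh3a1, which oxidises aromatic and lipid-derived aldehydes, had intensities of 664, 643 and 520 on KO and 273, 233 and 247 on WT arrays, without overlap. Its log2 signal averaged 9.22 ± 0.04 in KO cultures and 8.38 ± 0.14 in WT cultures, 1.80-fold higher in KO (difference 0.84, SE 0.08, limma adjusted p = 0.00019). Aldh2, the mitochondrial enzyme for acetaldehyde, had intensities of 2097, 2425 and 1303 on KO and 1418, 1102 and 1036 on WT arrays. KO replicate 3 fell below WT replicate 1, so the groups overlapped, and the SD of log2 values, 0.29 in KO and 0.23 in WT, was the largest of any member. The difference of 0.34 (SE 0.16) did not pass (limma adjusted p = 0.21). It did pass without KO replicate 3 (0.50, adjusted p = 0.0077) and with array weights (0.48, adjusted p = 0.012).

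Aldh1a1 had intensities of 4.80, 0.256 and -3.22 on KO and 8.54, 7.38 and 5.04 on WT arrays, and Aldh1a3 had 10.7, 4.70 and 8.19 on KO and 6.92, 10.3 and 3.70 on WT. No array was above background for either, and all of these values lay below the 95th percentile of the type N control spots (11.6 to 20.4). Their differences were -0.15 and -0.00 (limma adjusted p = 0.14 and 0.98), and a missing call at this signal does not show that they were unchanged. Aldh1a1 was called under median scaling (-0.22, adjusted p = 0.036), with both groups near background. Of the other aldehyde-oxidising genes, 2 of 11 were higher, none lower, and 5 were near background on every array (median 0.04). Aox1, an aldehyde oxidase, was at least 1.39-fold higher in KO (limma adjusted p = 0.00019), and Aldh9a1, a dehydrogenase of amine-derived aldehydes, 1.34-fold (adjusted p = 0.010, 0.062 with offset 0). Aldh1a2, the retinaldehyde dehydrogenase of the embryo, and Aldh1a7, a close copy of Aldh1a1, were near background on every array.

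Akr1b8, an aldose reductase relative first described as induced by fibroblast growth factor, had intensities of 2194, 2420 and 2064 on KO and 1171, 1218 and 1157 on WT arrays. The groups did not overlap and the WT arrays varied little (coefficient of variation 2.70%). Its log2 signal averaged 10.98 ± 0.08 in KO cultures and 10.43 ± 0.04 in WT cultures, 1.47-fold higher in KO (difference 0.55, SE 0.06, limma adjusted p = 0.0004). Of the other aldo-keto and carbonyl reductases 3 of 13 were higher and 1 lower (median 0.00). Akr1b3, aldose reductase itself, was 1.80-fold higher with intensities of 6908, 6956 and 5645 on KO and 3296, 3185 and 2801 on WT arrays (limma adjusted p = 3.9e-05). Akr1a1, an aldehyde reductase, was 1.39-fold higher (adjusted p = 0.0020, 0.062 with offset 0) and Akr7a5, which acts on aflatoxin aldehyde, 1.37-fold (adjusted p = 0.015). The call of Akr7a5 was lost with offset 0 (adjusted p = 0.096) and without WT replicate 1 (0.065) or 2 (0.056). Akr1e1 was 1.44-fold lower (adjusted p = 0.0023), with 2 of 3 KO arrays above background and a difference of -0.53 that was -1.13 with offset 0. Akr1b7, the nearest relative of Akr1b8 measured, was near background on every array, and whether the Akr1b8 probe captures related transcripts was not tested.

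**Figure D3:**
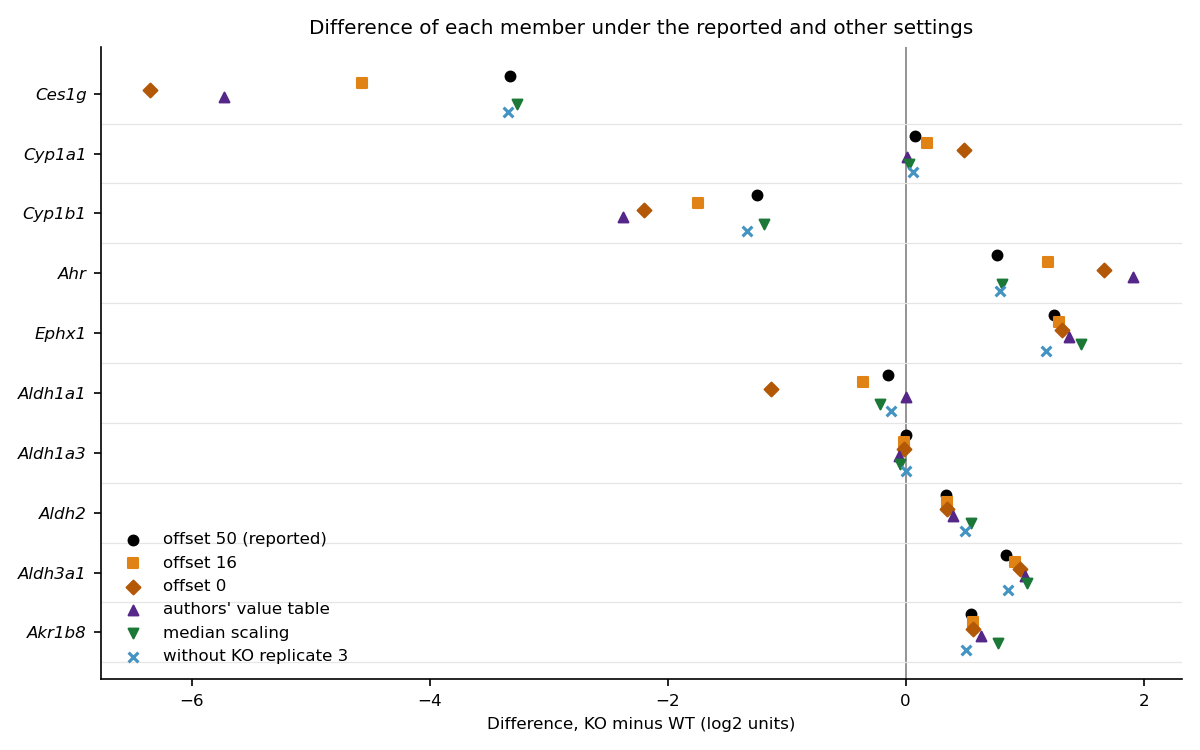
Log2 difference KO minus WT of each member as reported and under other settings, where offset is the number added to intensities before taking logs. Ces1g, Cyp1b1 and Ahr, dim in 1 group, move with the offset, whereas Ephx1, Aldh3a1 and Akr1b8, bright in both, stay between 0.51 and 1.47. Without KO replicate 3 the differences of Ces1g, Cyp1b1, Ahr and Ephx1 are -3.34, -1.33, 0.79 and 1.18.

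A list of alcohol and retinol dehydrogenases and retinoic acid genes gave 4 of 17 measured genes higher and 1 lower (median 0.03). All probes gave 10.4% higher and 12.1% lower, and 8 of the 17 genes were near background on every array. The retinoic acid genes were receptors of retinoic acid, the retinoic acid hydroxylase Cyp26a1 and the retinol carrier receptor Stra6. Dhrs3, which turns retinaldehyde back into retinol, had intensities of 126, 135 and 114.5 on KO and 4.02, 5.92 and 7.28 on WT arrays. That made it at least 2.27-fold higher in KO (difference 1.47, limma adjusted p = 1.7e-06). Adh7, an alcohol dehydrogenase that accepts retinol, was 2.02-fold higher (adjusted p = 9.0e-05, difference 1.01, or 1.79 with offset 0), the carbonyl reductase Dhrs4 1.82-fold and the retinol dehydrogenase Rdh10 1.61-fold (adjusted p = 0.00031 and 0.0012). The gene lower was Adh5, the glutathione-dependent formaldehyde dehydrogenase (-0.55, adjusted p = 0.0084), named after its value was seen.

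Esterases besides Ces1g gave 2 of 12 higher and none lower (median 0.01), and 8 were near background on every array. Esd, which hydrolyses S-formylglutathione, was 1.82-fold higher in KO (limma adjusted p = 0.00012), and the carboxylesterase Ces2c at least 1.13-fold (adjusted p = 0.010, above background on 2 of 3 KO arrays). Among conjugating enzymes 2 of 18 were higher and 1 lower (median 0.03), with 13 near background on every array. As3mt, an arsenic methyltransferase, was at least 1.23-fold higher (adjusted p = 0.00024, above background on 2 of 3 KO arrays) and Papss1, which makes the sulfate donor, 1.51-fold (adjusted p = 0.0031). Nnmt, a methyltransferase of nicotinamide, was called lower (adjusted p = 0.025) with no array above background, and lost that call under 5 settings.

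Regulators that sense foreign compounds or oxidants gave 3 of 10 higher and none lower (median 0.02). Nfe2l2, the transcription factor of the antioxidant response, had intensities of 1193, 897 and 852 on KO and 476, 431 and 417 on WT arrays, 1.68-fold higher in KO (limma adjusted p = 0.0020). Its small partners Mafk and Mafg were 1.24-fold and 1.33-fold higher (adjusted p = 0.0036 and 0.029), the call of Mafg being lost under 6 settings. Keap1, which holds Nfe2l2 protein in check, was not called (-0.24, adjusted p = 0.087), and the drug receptors Nr1i2 and Nr1i3 were near background on every array. Over all 8 lists, 21 of 114 measured genes were higher and 5 lower, 59 were near background on every array, and the median difference was 0.03. Over all probes 10.4% were higher and 12.1% lower, and each list's counts stand against these shares. Among probes above background on every array of at least 1 group 43.4% were called, and among those near background on every array 0.855%. Nothing further is read from the list counts.

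**Figure D4:**
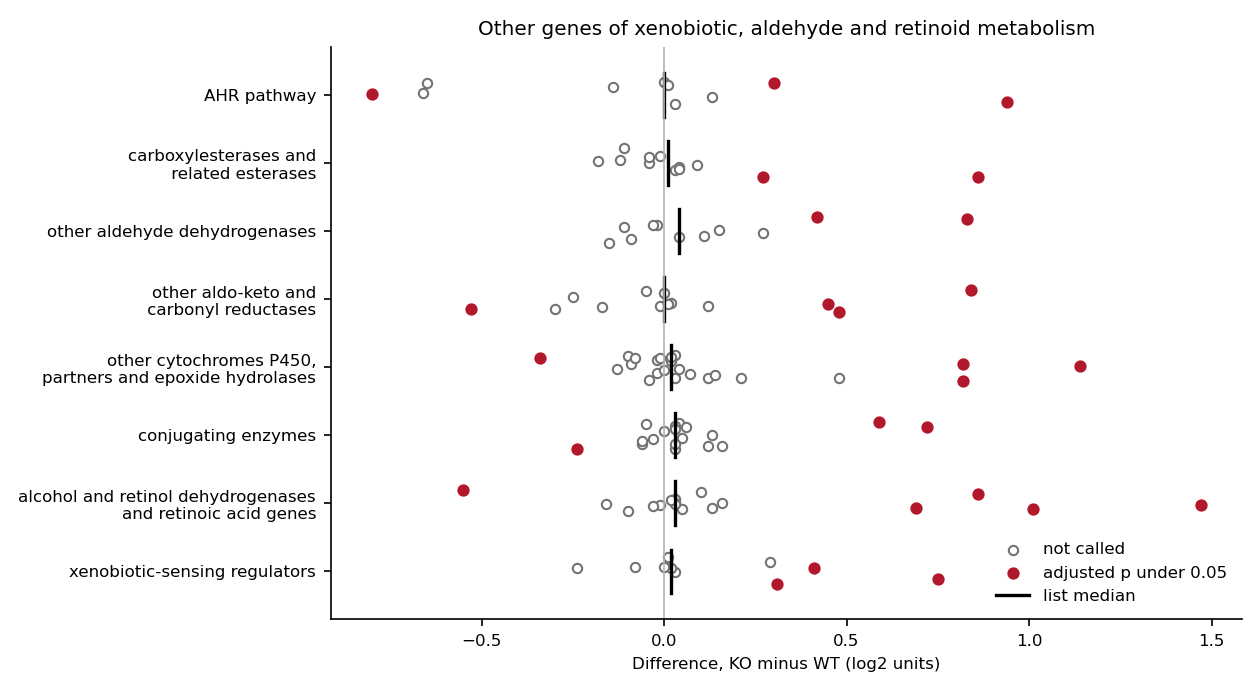
Log2 difference KO minus WT of every measured gene in the 8 lists around the set, red where the limma adjusted p was under 0.05, with the list median as a black bar. List medians lie between 0.00 and 0.04, and Dhrs3 at 1.47 is the point furthest to the right.

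Markers of other cell types in which such enzymes are abundant were read beside these results. Over all probes 10.4% were higher and 12.1% lower, and of those near background on every array 0.855% were called. The counts of the marker lists, fibroblast and hepatocyte lists included, stand against these shares, and nothing further is read from them. Of 12 epithelial markers 3 were higher in KO (Krt19, Krt18 and Sftpb) and 8 were near background on every array, Epcam, Cdh1, Krt5 and Krt14 among them. The summed intensity of that list was 2358 to 3423 on KO and 91.9 to 109 on WT arrays. Krt19 alone gave 2173 to 3195 on KO and 16.6 to 25.3 on WT arrays, the other markers summed to 185 to 237 and 72.4 to 92.1, and the median difference was -0.01. Of 7 adipocyte markers Plin4 and Pparg were higher in KO and 4 were near background on every array, with sums of 308 to 352 on KO and 183 to 216 on WT arrays. Lep, not called (-0.12), gave 179.7 to 190.1 on KO and 144.1 to 181.7 on WT arrays. The other adipocyte markers summed to 127.9 to 168.6 and 30.6 to 39.0. Plin4 was above background on 3 KO arrays and Pparg on 2, and neither on any WT array. The part of the epithelial and adipocyte markers in the higher Ephx1, Aldh3a1, Ahr and Akr1b8 was not tested. None of 6 macrophage and blood cell markers and none of 7 endothelial markers was called, and 4 and 7 of them were near background on every array. Their sums were 1439 to 1929 on KO and 935 to 1313 on WT arrays for the first list, mostly from Cd14, and 8.43 to 27.4 and 21.9 to 35.3 for the second.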

How the data were processed

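RNA of 3 KO and 3 WT cultures was read on Codelink 20K mouse arrays. Per the labels, Cy5 labelled the culture and Cy3 a pool of the same genotype, but each deposited file holds 1 channel, taken here as the culture's, since the files carry culture names. If it were the pool's, arrays of a genotype would repeat 1 RNA. The names inside the files of KO replicates 2 and 3 are exchanged against the titles, which are followed here. Groups are unaffected.

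The deposited files give spot and background intensity; the deposited expression value is the spot mean minus the background median, and the authors' normalized intensity is that over 1 constant per array. The authors' value table holds the latter: 19769 of 19800 rows matched a probe, all of them equal in both columns, within 1e-06, after KO columns 2 and 3 were exchanged. Its column medians were 0.961 to 0.974. limma is named in the submitters' processing notes.

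Normexp with offset 50 on spot mean and background median, removal of masked, contaminated or irregular spots, quantile normalization of log2 values and lmFit with eBayes (limma 3.58.1, R 4.3.3, two-sided) were applied to gene probes. Probes with 4 or more values were tested, 19598 in all, with Benjamini-Hochberg adjustment over all. The fit step alone was checked on simulated log2 values with the same spread for every probe and array. That check does not cover background correction, normalization or arrays of unequal spread. Above background means neither marked low nor masked by the scanner software. Probes were named by unversioned accession (10712 of 19801) from a GRCm38.p6 table, and a gene was read by its brightest probe. Named are the members, Mapk14, up to 4 called genes per list with the smallest adjusted p, Hras and the 5 profiles nearest to Ces1g; list genes that were not called, Adh5 and the neighbours of Ces1g were named after their values were seen. Members and lists were chosen with earlier results of these data known. The difference of Hras, the transduced gene's mouse relative, was 0.31 (adjusted p = 0.14), and passed under median scaling (0.52, 0.005) and without KO replicate 1 (0.42, 0.041). Of the genes this rule names, 1 is not reported here.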

Additional observations from a re-analysis of the deposited data

How the results depend on the processing

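Ephx1, Aldh3a1, Akr1b8, Ahr and Cyp1b1 kept their direction and their call under each of the 16 alternatives run, and Ces1g its direction. The differences of Ces1g, Ahr and Cyp1b1, dim in 1 group, moved with the offset. So did, by over 1.5 times with offset 0, those of Mapk14 (-2.24), Nqo1 (2.67), Gsta1 (0.64), Ces2c (0.81), Aox1 (3.04), Akr1e1 (-1.13), Maob (2.52), Cyp4v3 (-1.27), As3mt (3.03), Nnmt (-1.58), Dhrs3 (3.51), Adh7 (1.79) and Mafk (0.63). Aldh9a1 (0.63) and Mafg (0.65) moved as far with the authors' value table, and Akr1b3 (0.54) with the spot median. No setting moved a pathway list's count in 1 direction by more than 2 genes or a marker list's by more than 1. Aldh1a3, at -0.00, turned sign with the spot median (0.02) and without KO replicate 2 (0.02), KO replicate 3 (0.00) or WT replicate 2 (0.03), never with a call; leaving out 1 array gave -0.05 to 0.03. Under median scaling 2 members besides Ces1g were lower, Cyp1b1 and Aldh1a1. Probes lower in KO, 2374 as reported, were 1345 under median scaling, 1331 with offset 0 and 1459 with the authors' value table (floor 0.5). Median scaling raised probes above background by a median of 0.13 log2 units in KO relative to the reported values, and gave 2401 higher against 2047. Pathway genes lower in KO, 5 as reported, were 8 with array weights and with the replicate block, 3 under median scaling and with offset 0, and 2 with the authors' value table. Leaving out 1 array gave 1529 to 2669 probes higher and 1662 to 3157 lower, both highest without KO replicate 3. The labels do not say whether equal replicate numbers mark paired cultures. Deviations from the group means correlated at 0.34, -0.17 and 0.15 for numbers 1, 2 and 3 of the titles. For unequal numbers of the titles the correlations were -0.37 to 0.28. With the names inside the files, which exchange KO replicates 2 and 3, equal numbers gave 0.34, 0.28 and -0.14. With 3 arrays per group the deviations are not independent, so these values cannot decide whether the samples are paired. The replicate block, numbered by the titles, gave 2027 probes higher and 2312 lower. Each array has its own array number, so no slide block could be fitted. For probes near background a missing call shows little: 0.855% of the 8774 such probes were called.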
